A study of Paralichthys olivaceus with 2 samples.

Results

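The genes described here are those of the Japanese flounder (Paralichthys olivaceus) with giant coding sequences, of 9000 nt or more, measured in whole-body RNA of larvae. They were chosen by 2 measured values: the coding length implied by a gene's read count and its deposited FPKM, and a minimum of 100 counts over both libraries. That rule took in 109 genes of the 21787 listed. A further 47 genes reached the length but not the counts, which makes 156 with a length of 9000 nt or more. Lengths could not be computed for the 1749 genes with no count in either library, so giant genes among those are not seen.

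The T3 group had received the thyroid hormone 3,3′,5-triiodo-L-thyronine at 0.01 mg/L for 10 days from 16 days after hatching (DAH). The control group was untreated. Both were sampled at 42 DAH, 16 days after treatment ended, from groups that started with 1000 larvae each. Each group is 1 poly(A)-selected library of whole bodies, with 6042338 gene counts for T3 and 4943675 for the control, so no ratio has a replicate check. All intervals are exact 95% Clopper-Pearson intervals that cover counting error only, and the values compare 2 libraries rather than the treatment and its absence. In whole-body RNA, fewer cells of a type and less RNA per cell cannot be told apart.

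Thyroid hormone drives flatfish metamorphosis, when the larva settles, an eye migrates and larval muscle and skin take on their later form. Very long coding sequences are found in vertebrates in a few kinds of gene. They include the sarcomere proteins titin, a spring of the contractile unit, nebulin, which lies along the thin filament, and obscurin. Obscurin links the contractile apparatus to membranes. Ryanodine receptors release calcium for contraction, and dystrophin ties the cytoskeleton to the muscle membrane. Others are dynein heavy chains, which move along microtubules, nesprins and plectin, which link filaments to other structures, FAT cadherins, large ubiquitin ligases, lipoprotein receptors and apolipoprotein B, the scaffold of lipoprotein particles.

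Which of these the 109 genes are is not resolved. The table gives serial IDs, and 0 of its 21787 IDs occur in the RefSeq gene table of the flounder (assembly ASM2471397v2). Of 46 genes or families known for long coding sequences in vertebrates, 44 have an entry under their symbol or a fish copy's symbol there, among them neb, dmd, huwe1, dync1h1 and obscna. Those entries are not paired with any measured value. Each gene is therefore called by its coding length, and a level or ratio below belongs to a length and not to a named protein. No marker of a tissue could be looked up for the same reason, so the whole-body label was not checked against markers.

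The 109 genes spanned 9045 to 102705 nt, with a median of 11841 nt. By length class, 23 lay below 10000 nt, 33 at 10000 to under 12000 nt, 34 at 12000 to under 15000 nt and 17 at 15000 to under 30000 nt. Only 2 were longer, at 78462 and 102705 nt, enough for proteins of about 26154 and 34235 residues. They stand apart in size, since the next longest coding sequence was 28929 nt. Both libraries gave the same length for all 109 genes, and all 109 lengths were multiples of 3. The agreement between libraries checks the calculation and is no second measurement of length.

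Next to the length limit, the shortest genes inside it had 9045 and 9072 nt, and the longest left out had 8994 and 8988 nt. The first pair were at ratios of 1.27 and 1.70 (T3 over control) and the second pair at 0.928 and 1.18. Next to the count limit, the genes with 100 and 105 counts were inside, at 1.67 and 0.945. Those with 99 and 97 counts were outside, at 0.990 and 1.67.

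Together the giant genes held 68796 counts in the T3 library and 47706 in the control library. That is 1.14% of the T3 counts and 0.965% of the control counts, from 0.544% of the genes with a length. A longer gene gathers more counts at a like level, so the shares of counts and of genes do not compare levels. After scaling between libraries by the trimmed mean of M-values (TMM), the summed counts were 1.24-fold higher in the T3 library (interval 1.22 to 1.25). Most of this difference sat in 4 genes. Those with at least 10000 counts, a split chosen after their values were seen, held 29532 T3 counts and 15614 control counts and were together 1.63-fold higher (1.59 to 1.66). The other 105 held 39264 T3 counts and 32092 control counts, 1.05-fold higher (1.04 to 1.07). That small excess depends on the TMM scaling, since these 105 held 0.650% of the T3 counts and 0.649% of the control counts.

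Levels between genes are compared per length, as TMM-scaled counts per kilobase of coding length per 1000000, called per-length abundance here. The median giant gene was at 3.76 in the T3 library and 3.18 in the control library. All 8083 genes with at least 100 counts had medians of 13.4 in the T3 library and 13.9 in the control library. Of the 109 giant genes, 10 in the T3 library and 7 in the control library lay above those medians. The count minimum bears on this gap, since 100 counts amount to a per-length abundance of about 1.02 at 9000 nt, so a long gene passes at a lower level than a short one. Without the minimum, the 156 genes had medians of 2.32 in the T3 library and 1.94 in the control library, against 4.09 and 4.10 for all 20038 genes with a length. With the minimum, the gap is thus partly set by the filter. Without it, giant genes were still lower per length than all genes with a length, in both libraries. They shared this with the next shorter genes: with the minimum, the 274 genes of 6000 to under 9000 nt had medians of 3.69 in the T3 library and 3.49 in the control library. Without it, genes of that class were at 2.83 in the T3 library and 2.74 in the control library. Of the 156 giant genes, 69.9% reached 100 counts, compared with 77.8% of 352 genes of 6000 to under 9000 nt and 34.6% of 8487 genes of 600 to under 1500 nt.

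Per-length abundance among the giant genes ran from 0.551 to 82.8 in the T3 library and from 0.625 to 58.5 in the control library. The middle 50% lay between 2.18 and 6.13 in the T3 library and between 1.86 and 5.47 in the control library. Genes at 10 or more numbered 12 in the T3 library and 11 in the control library. The 2 libraries ranked the giant genes similarly, with a Spearman's rho of 0.92 across the 109 genes, which share libraries and depth and are no independent points. Length and mean per-length abundance showed a rho of -0.05 across the same genes.

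**Figure D1:**
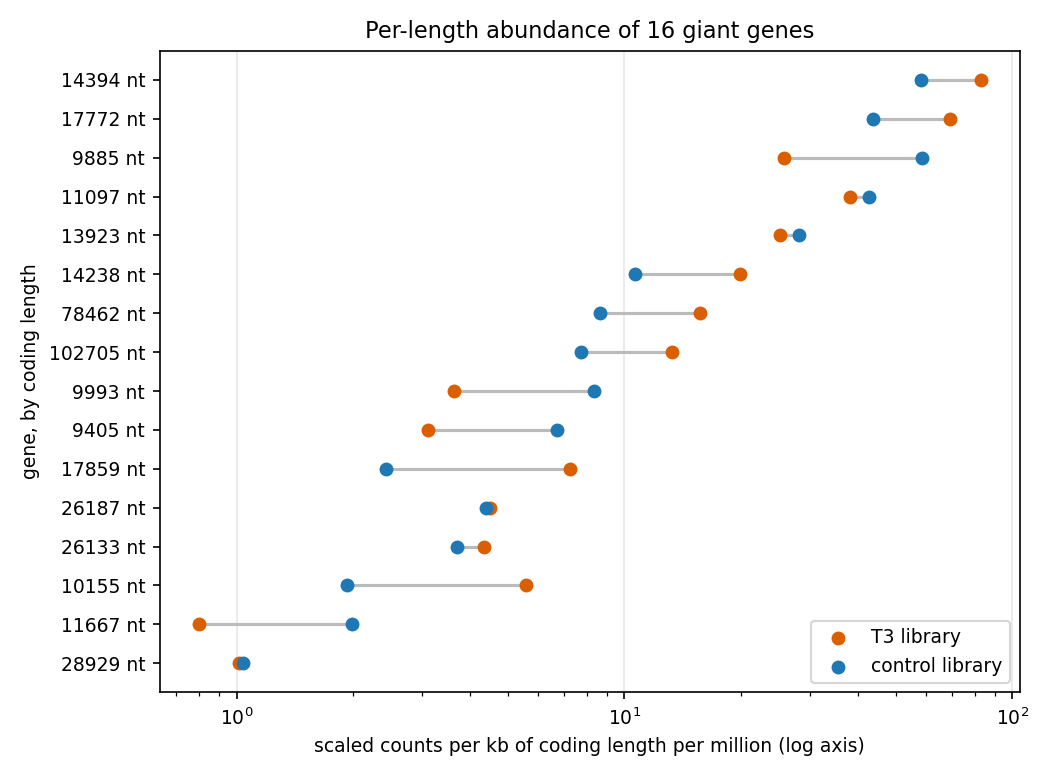
Per-length abundance (TMM-scaled counts per kilobase of coding length per 1000000, log axis) of the 16 giant genes described one by one, with 1 point per library (T3 orange, control blue) and rows ordered by mean level. The 14394 nt gene is at 82.8 in the T3 library and 58.0 in the control library, while the 9885 nt gene is at 25.8 in the T3 library and 58.5 in the control library.

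The most abundant giant genes did not move together. The 14394 nt gene was first by mean level, at 82.8 in the T3 library (7025 counts) and 58.0 in the control library (4227 counts). It was 1.43-fold higher in the T3 library (1.37 to 1.48). The 17772 nt gene followed at 69.2 in the T3 library (7246 counts) and 43.7 in the control library (3931 counts), 1.58-fold higher (1.52 to 1.65). Both differences exceeded counting error and stayed under 2-fold.

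The next 3 by level were lower in the T3 library. The 9885 nt gene, GS_001638, was at 25.8 in the T3 library (1502 counts) and 58.5 in the control library (2928 counts). Its ratio was 0.441 (0.414 to 0.469), which is 2.27-fold lower (2.13 to 2.42). It had the highest level of all giant genes in the control library and ranked 4 in the T3 library.

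The 11097 nt gene was at 38.2 in the T3 library (2499 counts) and 42.7 in the control library (2402 counts), with a ratio of 0.894 (0.845 to 0.946). The 13923 nt gene was at 25.2 in the T3 library and 28.3 in the control library, with a ratio of 0.891 (0.837 to 0.948). For both, the interval reached equal abundance when the 20 most abundant genes were left out of the scaling. Next by level, the 11841 nt gene, named after its values were seen, was at 25.4 in the T3 library and 23.7 in the control library, and its interval (0.999 to 1.15) included equal abundance.

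The 2 longest coding sequences had nearly the same ratio. The 102705 nt gene had 8037 counts in the T3 library and 4012 in the control library, or 13.3 and 7.71 per length. It was 1.72-fold higher in the T3 library (1.66 to 1.79). The 78462 nt gene had 7224 counts in the T3 library and 3444 in the control library, or 15.6 and 8.67 per length. It was 1.80-fold higher (1.73 to 1.88).

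Per length, the shorter of the pair was the more abundant in both libraries, and their ratio intervals overlapped. Together they held 22.2% of the giant genes' T3 counts and 15.6% of their control counts, on 11.7% of the summed coding length. Their rows in the table lie 10 apart. Of the 9 genes listed between them, 8 had a length, all of 4167 nt or less, and none had more than 82 counts in a library. For the gene of 561 nt next to the longest, the ratio was 2.01 (1.32 to 3.11), and for the other 7 the interval included equal abundance.

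The other 3 of the 5 longest showed smaller differences. The 28929 nt gene was at 1.01 per length in the T3 library (173 counts) and 1.04 in the control library (152 counts), a ratio of 0.978 (0.782 to 1.22). The 26187 nt gene had 695 counts in the T3 library and 584 in the control library, a ratio of 1.02 (0.915 to 1.14). The 26133 nt gene had 670 counts in the T3 library and 490 in the control library, a ratio of 1.18 (1.04 to 1.32), and its interval included equal abundance with library totals.

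Across all 109, the balance lay toward higher levels in the T3 library. The point ratio was above 1 for 78 genes, or 71.6%, against 47.9% of the 8083 genes with at least 100 counts. The interval lay wholly above equal abundance for 47 giant genes, or 43.1%, against 16.2% of all 8083. It lay wholly below for 13, or 11.9%, against 22.7% of all 8083. For the other 49 the interval included equal abundance. When scaling ignored the 20 most abundant genes, 56 giant genes were higher and 10 lower. Of all 8083, 1763 were higher and 1461 lower, so the direction of the wider set turned there and that of the giant genes did not. With library totals, the giant genes fell to 35 higher and 15 lower, beside 1021 higher and 2185 lower of all 8083. These shares describe the 2 libraries, and no test of the difference between the sets was made. A gene with more counts has a narrower interval, and the median count was 483 for the giant genes and 224 for all 8083. In the class of 100 to under 200 counts, 14.3% of 21 giant genes were higher and 14.3% lower. The shares were 11.8% and 14.4% for 3510 shorter genes. At 200 to under 500 counts, 41.7% of 36 giant genes were higher and 11.1% lower, against 16.3% and 21.5% of 2779 shorter genes. At 500 to under 1000 counts they were 56.25% and 9.38% of 32 giant genes, against 18.9% and 34.5% of 891 shorter genes. At 1000 to under 5000 counts they were 43.75% and 18.75% of 16 giant genes, against 26.6% and 47.7% of 568 shorter genes. Of shorter genes of 6000 to under 9000 nt, 17.3% were higher and 7.41% lower at 100 to under 200 counts (81 genes). In the following classes, low to high, their shares were 19.7% and 14.4% (132 genes), 19.5% and 17.1% (41) and 5.88% and 41.2% (17).

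**Figure D2:**
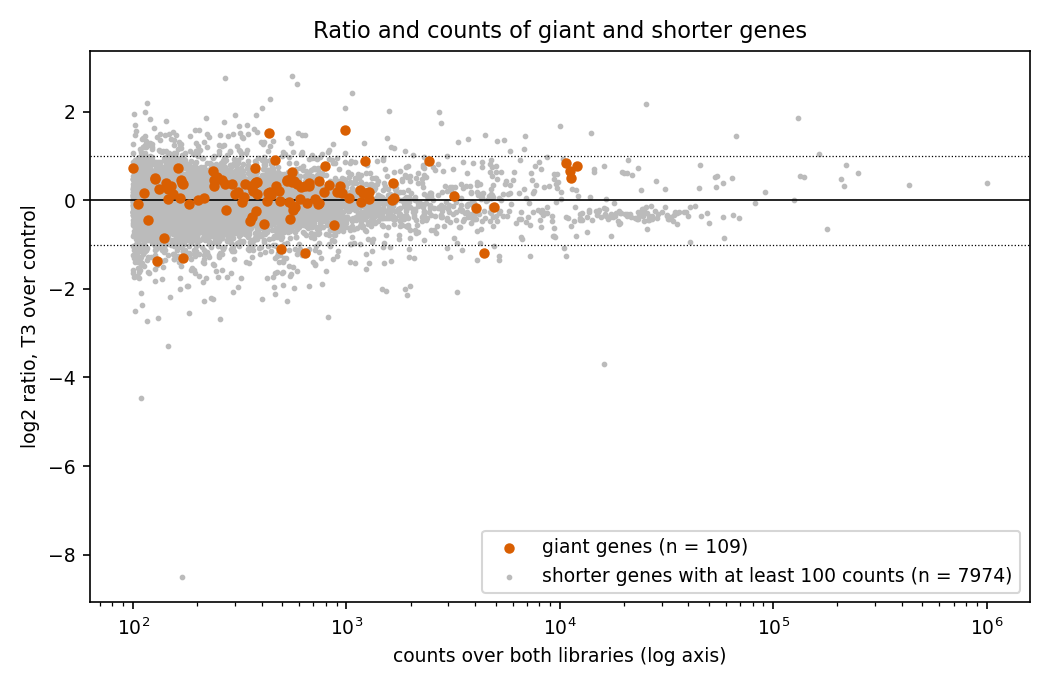
Log2 ratio (T3 over control) against counts over both libraries (log axis) for the 109 giant genes (orange) and 7974 shorter genes with at least 100 counts (grey), 1 point per gene; dotted lines mark a 2-fold difference. The 4 giant genes with over 10000 counts all lie above 0 and below the upper dotted line.

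The median log2 ratio of the giant genes was 0.19, against -0.02 for all 8083 genes with at least 100 counts and 0.00 for the 17301 genes with at least 10 counts. Their middle 50% ran from -0.02 to 0.42, and that of all 8083 from -0.30 to 0.24. The 2 distributions therefore overlapped widely. The robust standard deviation across genes was 0.33 for the giant genes, where counting alone would give 0.14, and 0.41 for all 8083, where counting would give 0.20. By size, 33 giant genes had a ratio between 1 and 1.25 (30.3%, against 27.5% of all 8083) and 31 between 1.25 and 1.5 (28.4%, against 12.04%). A further 12 lay between 1.5 and 2 (11.01%, against 6.30%) and 2 above 2 (1.83%, against 2.004%). On the lower side, 25 were between 0.667 and 1 (22.9%, against 41.8%) and 1 between 0.5 and 0.667 (0.917%, against 6.95%). The 5 below 0.5 made up 4.59%, against 3.35% of all 8083.

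Differences beyond 2-fold were few. With the interval wholly past 2-fold, 2 giant genes were higher in the T3 library (1.83%, against 0.767% of all 8083) and 1 was lower (0.917%, against 1.3%). The interval lay wholly within 2-fold for 92 of the 109, or 84.4%, close to the 80.7% of all 8083. The 17859 nt gene, GS_000772, had 761 counts in the T3 library and 219 in the control library, or 7.23 and 2.42 per length. It was 2.98-fold higher (2.57 to 3.49). The 10155 nt gene, GS_014166, had 333 counts in the T3 library and 99 in the control library, or 5.56 and 1.92 per length, and was 2.89-fold higher (2.30 to 3.65). The lower gene was the abundant 9885 nt gene described above.

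By the bound of the interval that lies closest to 1, the next higher genes were the 78462 nt gene and the 14238 nt gene. The 14238 nt gene was at 19.8 per length in the T3 library (1665 counts) and 10.7 in the control library (768 counts), 1.86-fold higher (1.71 to 2.03). A gene of 15096 nt, named after its values were seen, had nearly the same ratio, 1.86 (1.65 to 2.10), with 838 counts in the T3 library and 387 in the control library. The 47 higher genes ranged in ratio from 1.13 to 2.98 with a median of 1.35.

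The lower genes after GS_001638 were less abundant. GS_009207, of 9993 nt, had 214 counts in the T3 library and 422 in the control library, and its ratio was 0.436 (0.368 to 0.515). With library totals that interval lay wholly beyond 2-fold. The 11667 nt gene had 55 counts in the T3 library and 117 in the control library, a ratio of 0.404 (0.288 to 0.561). The 9405 nt gene had 173 counts in the T3 library and 319 in the control library, a ratio of 0.466 (0.385 to 0.562).

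Of the 5 giant genes with point ratios below 0.5, only the 9885 nt gene, with 4430 counts over both libraries, was abundant. The rest had 636 counts or fewer. The lowest ratio, 0.386 (0.259 to 0.567), was that of the 12321 nt gene, named after its values were seen. It had 40 counts in the T3 library and 89 in the control library. Across the 13 lower genes the ratio ran from 0.386 to 0.894, with a median of 0.674. Of the 13, 3 had at least 1000 counts over both libraries, and of the 47 higher genes 11 did.

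**Figure D3:**
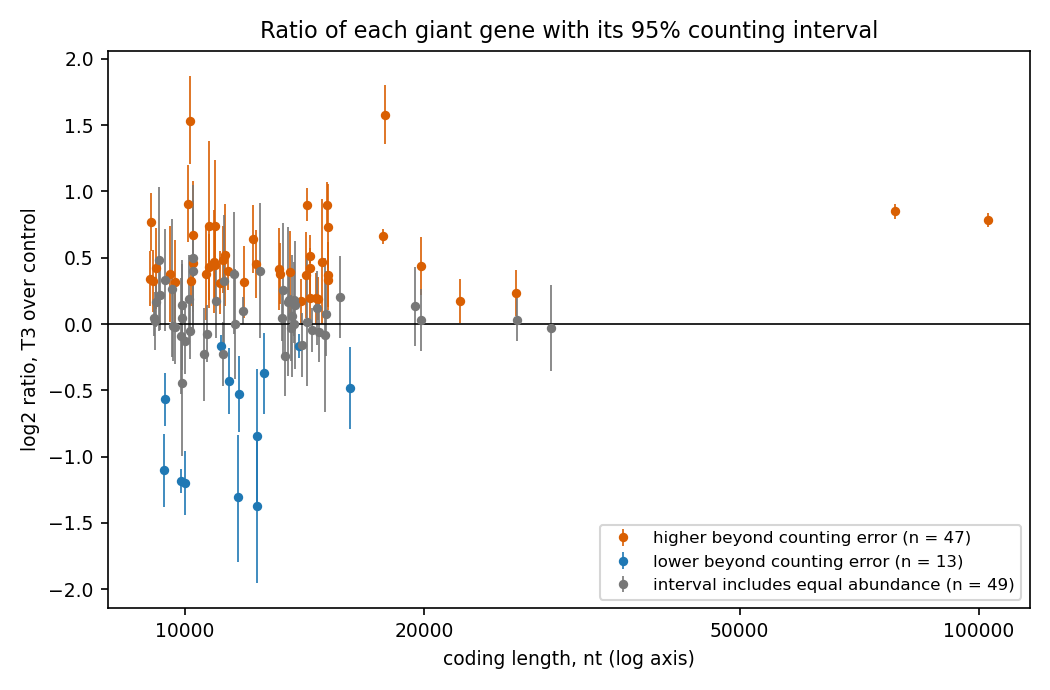
Log2 ratio (T3 over control) of each of the 109 giant genes against coding length (log axis), with 95% counting intervals; 47 are higher beyond counting error (orange), 13 lower (blue), and for 49 the interval includes equal abundance (grey). All 13 lower genes have coding lengths of 16161 nt or less, as do most of the 109, and the 2 longest lie at log2 ratios of 0.78 and 0.85.

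Coding length moved with the ratio over all genes, and the giant genes lie at the long end of that trend. Among genes with at least 100 counts, the median log2 ratio was -0.14 for 1015 genes under 600 nt, -0.05 for 2937 genes of 600 to under 1500 nt and 0.00 for 2450 genes of 1500 to under 3000 nt. It was 0.04 for 1298 genes of 3000 to under 6000 nt and 0.06 for 274 genes of 6000 to under 9000 nt. The giant classes had medians of 0.14 (23 genes below 10000 nt), 0.33 (33 genes of 10000 to under 12000 nt), 0.18 (34 genes of 12000 to under 15000 nt) and 0.20 (17 genes of 15000 to under 30000 nt). Another scaling moves every class by a like amount, -0.07 with library totals and by 0.09 when the 20 most abundant genes are ignored, so the medians of -0.05 to 0.06 have no settled sign. Every giant class was above every shorter class, but the giant classes did not rank by length. Across the 109 genes Spearman's rho between length and log2 ratio was 0.07, and 0.02 without the 2 longest, against 0.14 across all 8083 genes. RNA integrity and fragmentation were not given for these libraries, and their part in the length trend was not tested.

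**Figure D4:**
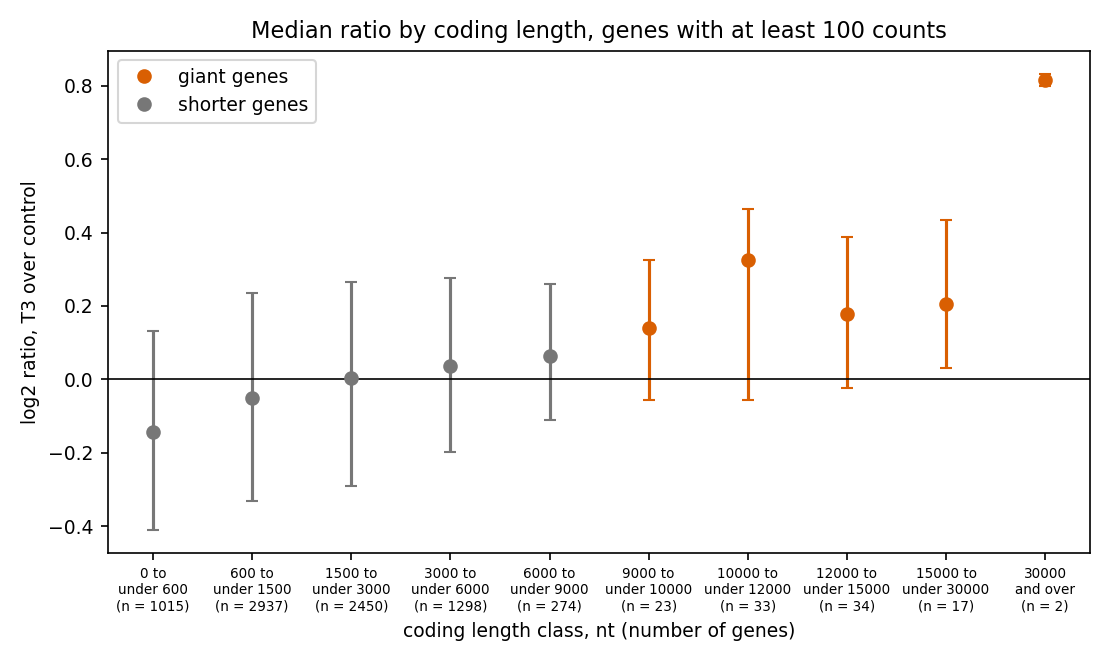
Median log2 ratio (T3 over control) by coding length class for genes with at least 100 counts; points are medians, bars run from the lower to the upper quartile across genes, giant genes orange and shorter genes grey. Medians go from -0.14 under 600 nt to 0.06 at 6000 to under 9000 nt, and lie between 0.14 and 0.33 in the 4 giant classes up to 30000 nt; the last class holds 2 genes.

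The higher ratios were also seen at like counts. Among genes with 100 to under 200 counts, the 21 giant genes had a median log2 ratio of 0.26 and the 3510 shorter genes 0.02. At 200 to under 500 counts the medians were 0.19 for 36 giant genes and -0.03 for 2779 shorter genes. At 500 to under 1000 counts they were 0.25 for 32 giant genes and -0.07 for 891 shorter genes. At 1000 to under 5000 counts the giant genes (16) were at 0.07 and the shorter genes (568) at -0.12.

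The share of giant genes with a point ratio above 1 was 71.4%, 72.2%, 68.8% and 68.8% in these classes, low to high. For shorter genes it was 51.7%, 47.4%, 40.2% and 38.2%. Giant genes thus kept a like share across these classes, while the share among shorter genes was lower in each class of more counts. Shorter genes of 6000 to under 9000 nt came close to the giant genes in the class of fewest counts. Their shares were 67.9% (81 genes), 61.4% (132), 58.5% (41) and 23.5% (17), low to high. At 5000 counts or more all 4 giant genes were higher, with a median of 0.72, against -0.26 for 226 shorter genes. Even there, 16 of the 230 genes of that abundance had a higher ratio than the 78462 nt gene and 43 a higher one than the 14394 nt gene.

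**Figure D5:**
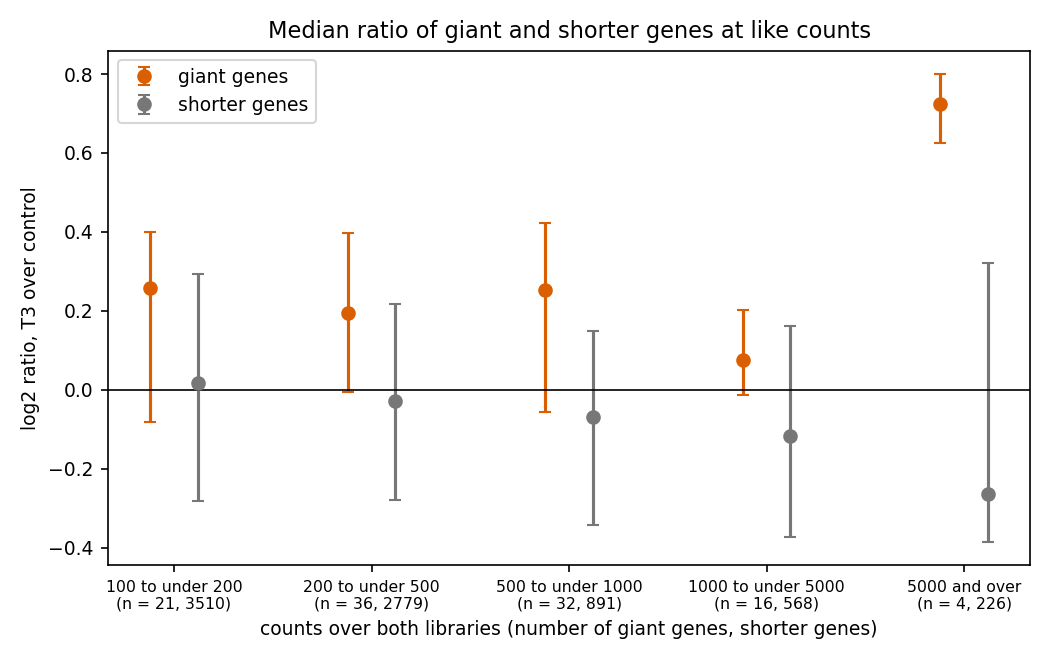
Median log2 ratio (T3 over control) of giant genes (orange) and shorter genes (grey) in 5 classes of counts over both libraries, with bars from the lower to the upper quartile across genes. The giant median is above the shorter median in each class, and the quartile ranges overlap in all but the class of at least 5000 counts, which holds 4 giant genes.

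Set by per-length abundance instead, the difference was smaller below 2 per length, where the count minimum lets in only long genes. The shorter genes there had 4665 to 8409 nt, with a median of 6338 nt, against a median of 1053 nt at 10 and over. Scarcity and the length of the shorter genes therefore cannot be told apart here. Below 2 per length, the median log2 ratio was 0.15 for 28 giant genes and 0.10 for 70 shorter genes. From 2 to under 5 it was 0.32 for 49 giant genes and 0.08 for 1101 shorter genes. From 5 to under 10 it was 0.17 for 20 giant genes and 0.05 for 1842 shorter genes. At 10 and over it was 0.25 for 12 giant genes, spread from lower to higher with a robust standard deviation of 0.61, and -0.08 for 4961 shorter genes.

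Some giant genes stand close together in the table, a feature looked at after the values were seen. There were 6 pairs at most 10 rows apart, and in 3 of them both intervals included equal abundance. How many such pairs 109 rows picked at random from the 21787 would give was not computed. The closest pair, 2 rows apart, were the abundant 11097 nt and 9885 nt genes. The gene listed between them was also long, at 11025 nt, and had 5 counts in the T3 library and 11 in the control library. Its ratio was 0.39, with an interval (0.106 to 1.22) too wide to set it apart from either neighbour. Within 3 neighbouring rows, then, coding sequences of like length differed widely in level, and the outer 2 differed in ratio. In another pair, 5 rows apart, the 14370 nt gene was 1.34-fold higher in the T3 library (1.13 to 1.60), whereas the 9405 nt gene was at 0.466. The sources used here do not say whether neighbouring rows are neighbours in the genome, and reads shared between similar genes could not be recognised.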

How the data were processed

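RNA was sequenced as 150 bp paired-end Illumina reads, per the labels' protocols. The authors deposited raw read counts and FPKM per gene and library, per the file headers. TopHat2 2.0.12, HTSeq 0.6.1 and edgeR are named in the submitters' processing notes; the genome build, annotation and strand setting are not given in the sources used here.

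Coding length was computed by dividing a gene's count by its deposited FPKM and by its library's total, and then by 9. Reading that common factor as part of the FPKM scale is an inference that no label states; ratios do not depend on it, but lengths and the 9000 nt limit do. Counts were scaled by TMM (edgeR 4.0.16, R 4.3.3; factors 0.976 for T3 and 1.02 for the control). Log2 ratios had 0.5 added to each scaled count. Intervals were computed for every gene (Python 3.11.15, scipy 1.17.1), and a gene counted as beyond 2-fold when its whole interval was. A single library per group allows no test against replicates, so no p-value is given. The interval procedure was checked on simulated counts that vary by counting error only, with no variation between animals or libraries. DESeq2 1.42.0 size factors were among the alternatives.

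The members and lists were chosen with earlier results of these data known. The 16 genes chosen by rule to be described singly were the 5 longest, the 5 most abundant per length, those beyond 2-fold, and the 4 highest and 4 lowest by interval bound. IDs are printed for the first 2 in each direction. The 11841, 12321 and 15096 nt genes were added after their values were seen. No sequence is shown, since no ID could be paired with one.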

Additional observations from a re-analysis of the deposited data

How the results depend on the processing

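No alternative turned the direction of the median or summed ratio. Among the 16 single genes, no scaling turned one whose interval excluded equal abundance. Of those whose interval included it, the ratio crossed 1 between scalings for the 28929 nt gene (0.931 to 1.04) and the 26187 nt gene (0.974 to 1.09). The median log2 ratio of the giant genes (0.19) was 0.12 with library totals, 0.20 with DESeq2 size factors, 0.22 with the upper quartile and 0.28 without the 20 most abundant genes. It was 0.10 for lengths of at least 6000 nt, and as a difference of deposited log2 FPKM, without TMM scaling, it was 0.10 with 0.1 added. An added 1 is more than the median FPKM (0.408 in T3, 0.362 in the control) and shrinks such differences. With it, the median log2 ratio was 0.037. Its difference from the median of all genes with at least 100 counts (0.22) was 0.12 with a limit of 6000 nt; from genes of 6000 to 9000 nt it was 0.13, a comparison chosen after seeing the data. The summed ratio (1.24) was 1.18 with library totals, 1.26 with the upper quartile, 1.32 without the 20 most abundant genes, 1.07 from 6000 nt and 1.40 from 12000 nt. Without the gene with the most counts it was 1.20, and without the 4 genes of at least 10000 counts, chosen after seeing the data, 1.05. Both values keep the TMM scaling. As a share of library totals, the genes without those 4 made up 0.650% in T3 and 0.649% in the control. Genes higher and lower beyond counting error (47 and 13) numbered 96 and 55 from 6000 nt and 25 and 5 from 12000 nt, where the number of genes changes too. Beyond 2-fold (2 higher and 1 lower), the numbers were 2 and 2 with library totals, 3 and 4 from 6000 nt and 1 and 0 from 12000 nt. An interval beyond 1.5-fold gave 8 higher and 5 lower, and the point ratio beyond 2-fold gave 2 higher and 5 lower. The balance beyond 2-fold thus did not keep its direction. Median per-length abundance (3.76 in T3, 3.18 in the control) was 2.32 in T3 and 1.94 in the control with a minimum of 1 count. As deposited FPKM it was 0.408 in T3 and 0.362 in the control. Of 64 scaling alternatives for 16 single genes, 3 brought an interval to include equal abundance. No paired analysis was possible because there is a single library of each group; leaving one out was likewise impossible. At this depth the intervals of 49 of the 109 genes included equal abundance, among them 6 genes with at least 1000 counts.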
